A study of Mus musculus with 50 samples.

Results

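The genes described here are the transcription factor NRF2 (gene Nfe2l2), its inhibitor Keap1 and 8 antioxidant enzyme genes, Nqo1, Gclm, Gclc, Txnrd1, Srxn1, Prdx1, Sod1 and Sod2. They were matched by symbol and not filtered on measured values, but were chosen with earlier results of these data known. They make up 10 of the 53700 genes in the count files, each matching 1 row. Their mRNA was measured by RNA-sequencing of microglia, the resident macrophages of the brain, sorted from the hippocampus of 50 male C57BL/6J mice. The study compared control rearing (CTR) with early-life stress (ELS), and at the adult age an injection of saline (PBS) with lipopolysaccharide (LPS, a bacterial cell wall component that triggers inflammation).

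All mice were wild type, with no transgene. ELS consisted of limited bedding and nesting material given to the dam and litter from postnatal day (P) 2 to P9. At P9, without any injection, 12 CTR mice (P9-CTR) and 13 ELS mice (P9-ELS) were sampled. At P200, 7 CTR mice received PBS (CTR-PBS), 6 ELS mice PBS (ELS-PBS), 7 CTR mice LPS (CTR-LPS) and 5 ELS mice LPS (ELS-LPS), with LPS at 1 mg/kg into the peritoneum, 3 hours before sacrifice. The sort took CD45-intermediate, CD11b+ cells. Myelin was removed on a Percoll gradient at P200 but not at P9, and the P9 and P200 mice came from separate cohorts. The gradient, the injection, the cohort and age therefore cannot be told apart in the comparison of the ages. Each library is 1 mouse, and several mice came from each of 19 nests, read from the number before the point in the mouse label.

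NRF2 is made continuously and, in resting cells, is held by KEAP1, which hands it to a CUL3 ubiquitin ligase for destruction. Oxidants and electrophiles modify cysteines of KEAP1, NRF2 then accumulates, pairs with a small MAF protein and binds antioxidant response elements near genes for glutathione synthesis, thioredoxin recycling, quinone reduction and iron storage. BACH1 competes with NRF2 for these elements. Much of this control acts on the protein, which was not measured here. Microglia make superoxide when they respond to microbial products, and SOD1 in the cytosol and SOD2 in mitochondria convert it to hydrogen peroxide, which peroxiredoxins and glutathione peroxidases then reduce.

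In GRCm39, Nfe2l2 is ENSMUSG00000015839 at chr2:75504739-75534985 on the minus strand, Keap1 is ENSMUSG00000003308 at chr9:21141026-21150679 on the minus strand. Nqo1 is ENSMUSG00000003849 at chr8:108113835-108129934 on the minus strand. Gclm is ENSMUSG00000028124 at chr3:122039126-122065061 on the plus strand. Gclc is ENSMUSG00000032350 at chr9:77661797-77701770 on the plus strand. Txnrd1 is ENSMUSG00000020250 at chr10:82669785-82733546 on the plus strand. Srxn1 is ENSMUSG00000032802 at chr2:151947436-151957687 on the plus strand. Prdx1 is ENSMUSG00000028691 at chr4:116532123-116558398 on the plus strand. Sod1 is ENSMUSG00000022982 at chr16:90017408-90027657 on the plus strand. Sod2 is ENSMUSG00000006818 at chr17:13224095-13259591 on the plus strand.

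The promoters are shown first because the antioxidant response element is what NRF2 binds. In the mouse genome build GRCm39, the window from 250 bases before to 50 bases after the start of each gene's canonical GENCODE transcript was searched on both strands for the core of the element, TGACNNNGC, and for an AP-1 site, TGANTCA. The core was present in 12.5% of 21757 protein-coding promoters of the same length and the AP-1 site in 7.15%. Among the 10 genes the core was found in Gclm, Txnrd1, Srxn1, Prdx1 and Sod1, in each on the strand opposite to the gene, so that it reads as its reverse complement. The matches with 10 bases on either side are given 5′ to 3′ along the gene's own strand, with the core in capitals.

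Gclm (chr3:122039062-122039090, + strand): gctcccgggcGCACCGTCAactctcacga

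Txnrd1 (chr10:82694938-82694966, + strand): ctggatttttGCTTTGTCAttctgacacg

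Srxn1 (chr2:151947462-151947490, + strand): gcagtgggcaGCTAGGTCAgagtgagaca

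Prdx1 (chr4:116542653-116542681, + strand): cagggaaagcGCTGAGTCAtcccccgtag

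Sod1 (chr16:90017303-90017331, + strand): ggcgcgctgtGCAAAGTCAgtgacaatcc

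The match in Srxn1 lies in the transcribed part, starting at base 29, and the others start between 95 and 54 bases before the transcription start. In Prdx1 the core overlaps an AP-1 match that starts 76 bases before the transcription start. AP-1 matches were also found 182 bases before the start of Prdx1 and at 102 and 45 bases before that of Srxn1. Neither motif was in these windows of Nfe2l2, Keap1, Nqo1, Gclc or Sod2, which says nothing of sites elsewhere. Because Txnrd1 was the member with the largest difference after LPS, the 250 bases upstream of its transcription start (chr10:82694763-82695012, + strand) are shown with the core in capitals. They hold no annotated Txnrd1 exon, lie inside the gene because other transcripts start earlier, and overlap an exon of Gm38560, a non-coding RNA on the opposite strand.

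Txnrd1, 250 bases upstream: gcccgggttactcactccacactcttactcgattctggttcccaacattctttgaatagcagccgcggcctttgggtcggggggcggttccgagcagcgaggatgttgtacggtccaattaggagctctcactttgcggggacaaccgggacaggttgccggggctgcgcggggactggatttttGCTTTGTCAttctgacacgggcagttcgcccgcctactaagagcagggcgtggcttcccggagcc

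**Figure D1:**
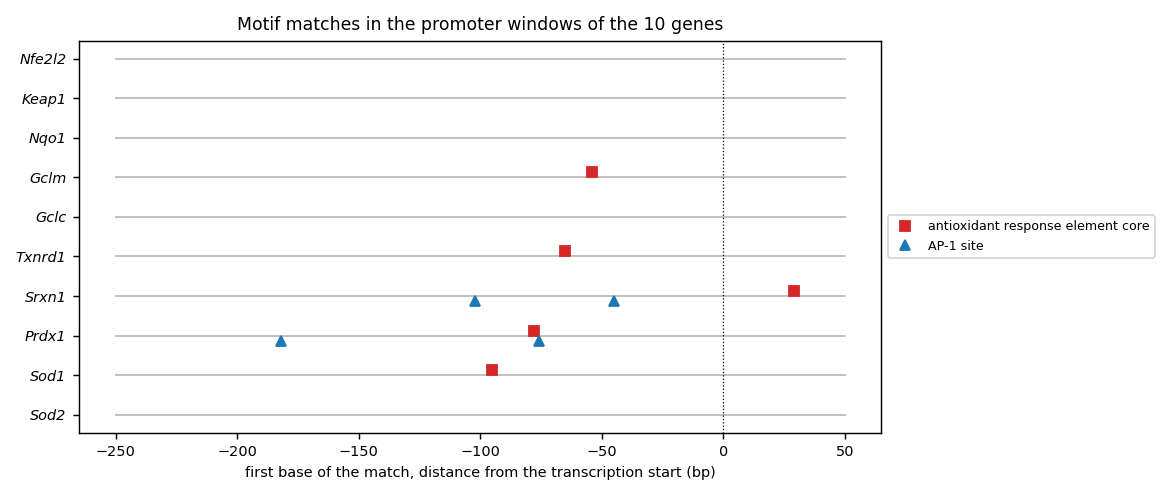
Position of motif matches in the promoter window of each of the 10 genes. The x axis is the distance in bases of the match's first base from the transcription start (dotted line), squares are antioxidant response element cores and triangles AP-1 sites, and 5 genes carry a core, 4 of them upstream of the start and Srxn1 after it.

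The depth was 5152838 to 42231258 counts per mouse, and a member passed the test when its Benjamini-Hochberg adjusted p in edgeR's quasi-likelihood test, fitted over 16696 genes and all 50 mice, was under 0.05. Levels are in CPM, counts scaled to the same total by TMM (trimmed mean of M values) library sizes. Fewer than 16000 genes were detected in 3 mice, P9-ELS mice 2 and 3 of nest 19 and CTR-PBS mouse 1 of nest 1, and values that these libraries move most are also given without them. Microglia markers such as Cx3cr1, P2ry12 and Csf1r were high in every group, with summed levels of 8 markers between 17700 and 47200 CPM. The sum hides changes of single markers. After LPS, 1 of the 8 was higher and 2 were lower in CTR, and 2 were lower in ELS. The lowest log2 fold changes were -1.73 in CTR and -2.01 in ELS. From P9 to P200, 5 were higher in CTR and 4 in ELS, and none was lower. The highest log2 fold changes were 2.01 in CTR and 2.101 in ELS. Their part in the results was not tested. In bulk samples, fewer cells of a type and less RNA per cell cannot be told apart.

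Per kilobase of canonical transcript, the mean level over the 50 mice was highest for Prdx1 at 127.8 CPM per kilobase and Nfe2l2 at 71.3, followed by Sod2 at 10.4, Txnrd1 at 10.1, Keap1 at 9.90 and Sod1 at 6.18. Gclc at 2.41, Gclm at 0.530, Srxn1 at 0.438 and Nqo1 at 0.0484 CPM per kilobase were the lowest. Nfe2l2 was above Sod2 in 50 of 50 mice and Sod1 above Gclc in 48 of 50, whereas Prdx1 exceeded Nfe2l2 in 33, Sod2 exceeded Txnrd1 in 33, and Txnrd1 exceeded Keap1 in only 14. Those neighbours therefore had no fixed order across mice. The place of Txnrd1 came from the LPS mice, where its mean was 21.1 in CTR and 24.9 in ELS, since in each of the other 4 groups its mean was between 3.37 and 6.90 CPM per kilobase and below those of Keap1 and Sod2. In addition, the order of Sod2, Txnrd1 and Keap1 also changed when the length of all exons was used instead. At P9 Prdx1 ranked above Nfe2l2 in CTR mice, with 152 and 38.5 CPM per kilobase, and in CTR-LPS mice Nfe2l2 ranked above Prdx1, with 130 and 88.7 CPM per kilobase.

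The members differed in how widely mice of the same group were spread. The within-group SD of log2 CPM was 0.27 for Nfe2l2, 0.28 for Prdx1, 0.28 for Sod1 and 0.33 for Sod2, below the median of 0.77 over all genes tested. It was 0.60 for Gclc and 0.61 for Keap1, also below that median, and 0.86 for Gclm, 1.11 for Txnrd1 and 1.44 for Srxn1. Differences of a given size were thus harder to detect for these genes than for Nfe2l2, Prdx1, Sod1 and Sod2. The libraries with few genes detected carried part of this spread for Keap1, Txnrd1 and Srxn1. Without them, SEs of the log2 difference between ELS-PBS and CTR-PBS were smaller. They were 0.19 for Keap1 (0.29 with all mice), 0.29 for Txnrd1 (0.40) and 0.47 for Srxn1 (0.65).

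Annotated genes share exon positions with 7 members on the opposite strand, and the sources used here do not say whether counting used strand, so reads of each such pair cannot be told apart. These members are Nfe2l2, Keap1, Gclm, Srxn1, Prdx1, Sod1 (with Scaf4, a protein-coding gene) and Sod2, the others overlapping long non-coding RNAs. Gclm also shares exon positions with a processed pseudogene on its own strand.

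**Figure D2:**
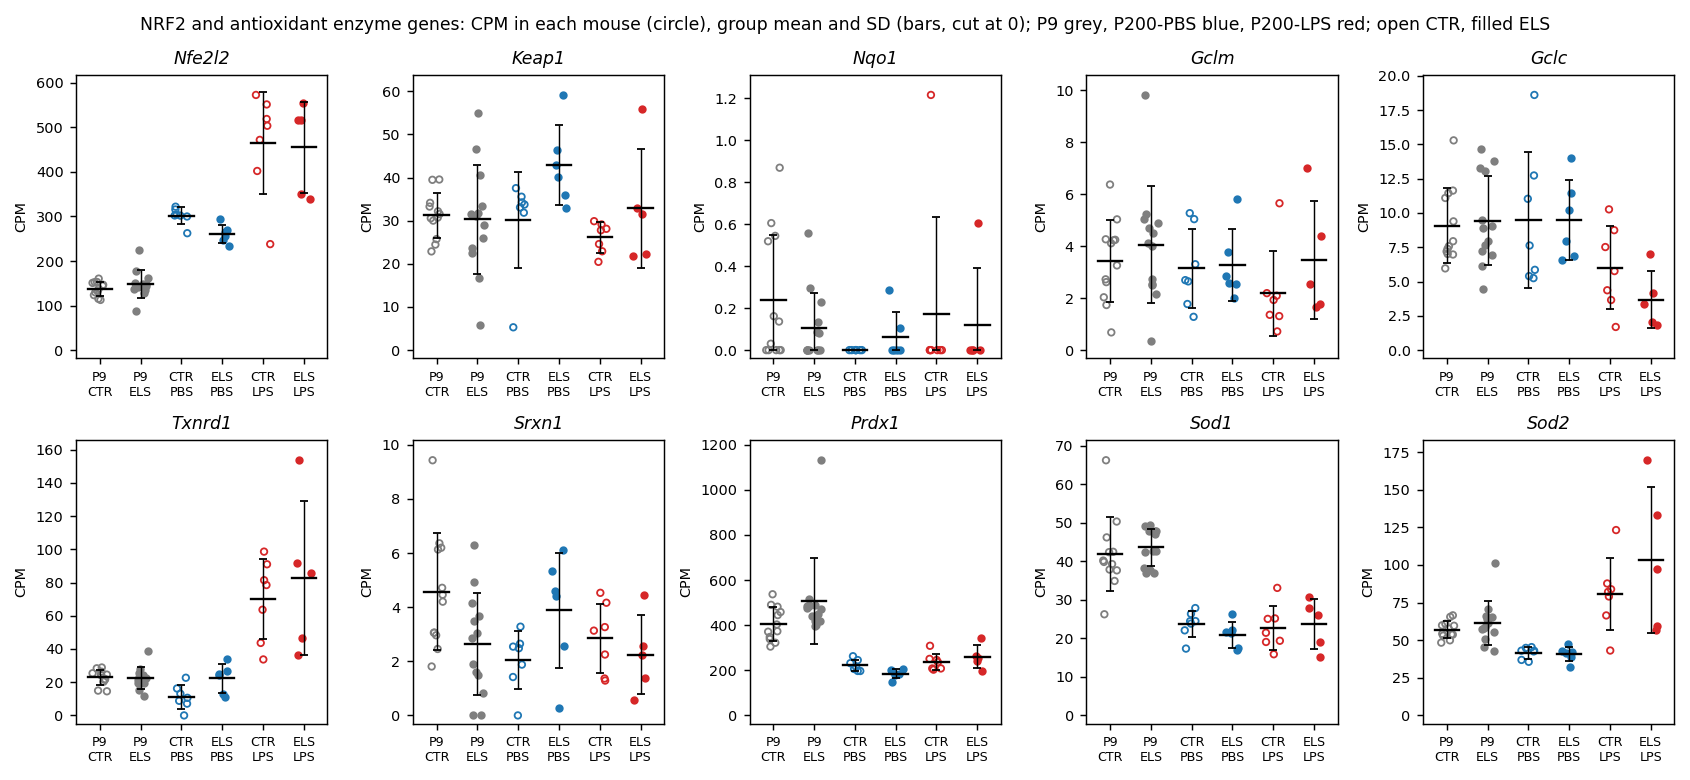
CPM of each of the 10 genes in each of the 50 mice. Circles are mice, open for CTR and filled for ELS, in grey at P9, blue at P200 after PBS and red at P200 after LPS, with horizontal bars for the group mean and vertical bars for the SD, drawn no lower than 0. Txnrd1 and Sod2 were highest after LPS, Prdx1 and Sod1 highest at P9, and Nfe2l2 rose from P9 to P200 and again after LPS.

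The LPS comparison asked how adult microglia respond to an acute inflammatory stimulus, and whether that response depends on early-life condition. In CTR mice, Txnrd1, Sod2 and Nfe2l2 were higher after LPS than after PBS. In ELS mice the same 3 genes were higher and Gclc was lower. That is 3 members higher of 9 tested in CTR, where 8.73% of all genes were higher and 6.2% lower, and 3 higher and 1 lower in ELS, where 7.4% were higher and 4.94% lower. The members were chosen with earlier results of these data known, so these counts describe and do not test. Nqo1, which was under the expression filter of at least 1 CPM in more than 2 mice, was not tested. The median log2 fold change of the 9 members was 0.10 in CTR and 0.18 in ELS, against 0.0047 and -0.04 over all genes. Changes of at least 2-fold that passed were found for Txnrd1 in CTR and for Txnrd1, Sod2 and Gclc in ELS, with 9.62% and 7.86% of all genes meeting that rule.

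Txnrd1 encodes the cytosolic thioredoxin reductase, which returns oxidised thioredoxin to its reduced form with NADPH. In CTR-PBS mice it was between 0 and 22.7 CPM with a median of 10.6, and in CTR-LPS mice between 33.7 and 98.6 CPM with a median of 78.5. In ELS-PBS mice it was between 10.9 and 34.0 CPM with a median of 24.5, and the 5 ELS-LPS mice had 36.4, 46.3, 85.7, 91.9 and 154 CPM. Every LPS mouse was above every PBS mouse of its condition. The fitted difference was a 6.26-fold increase in CTR (log2 2.65, SE 0.41, adjusted p = 1.69e-06) and a 3.72-fold increase in ELS (log2 1.90, SE 0.44, adjusted p = 0.00168). CTR-PBS mouse 1 of nest 1 had no Txnrd1 read, and without it the log2 fold change in CTR was 2.43 (adjusted p = 8.67e-09). With limma voom, all 50 mice included, the increase in CTR was 13.0-fold (adjusted p = 7.17e-06).

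Sod2 encodes the mitochondrial manganese superoxide dismutase. Its level in CTR-PBS mice was 35.6 to 45.4 CPM (median 43.0) and in CTR-LPS mice 43.1 to 123 CPM (median 82.1). ELS-PBS mice had 32.4 to 47.3 CPM (median 41.9), and the 5 ELS-LPS mice had 57.0, 59.2, 97.1, 133 and 170 CPM. All ELS-LPS mice were above all ELS-PBS mice, and 6 of 7 CTR-LPS mice were above all CTR-PBS mice. The increase was 1.94-fold in CTR (log2 0.96, SE 0.18, adjusted p = 6.44e-05) and 2.53-fold in ELS (log2 1.34, SE 0.20, adjusted p = 1.46e-06).

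Nfe2l2 itself followed the same direction with a smaller fold. The range was 262 to 322 CPM in CTR-PBS (median 302) and 238 to 573 CPM in CTR-LPS (median 504). In ELS-PBS it was 234 to 294 CPM (median 261), and the 5 ELS-LPS mice had 340, 351, 516, 516 and 555 CPM. The groups did not overlap in ELS, and in CTR 6 of 7 LPS mice were above all PBS mice while CTR-LPS mouse 3 of nest 5 was below all of them. The fold was 1.55 in CTR (log2 0.63, SE 0.14, adjusted p = 0.000838) and 1.75 in ELS (log2 0.80, SE 0.16, adjusted p = 0.000176).

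The same mice were lowest for all 3 genes. CTR-LPS mouse 3 of nest 5 had the lowest level of its group for Nfe2l2 (238 CPM), Txnrd1 (33.7 CPM) and Sod2 (43.1 CPM), and ELS-LPS mice 2 of nest 4 and 2 of nest 11 had the 2 lowest of theirs for all 3 genes. The summed CPM of 8 immediate early genes, including Fos, Jun and Egr1, was 5275 in the mouse of nest 5, 6178 in that of nest 4 and 9163 in that of nest 11, and it ran from 3630 to 8560 in CTR-LPS and from 6010 to 9160 in ELS-LPS. In PBS mice the same sum was 305 to 591 CPM, below that of every LPS mouse, the low ones included. Bach1 was also lowest of its group in the mouse of nest 5 (262 CPM). The mice of nests 11 and 4 had the 2 lowest Bach1 levels of theirs (216 and 334 CPM). Slc7a11, a cystine importer subunit, was lowest of ELS-LPS in these mice of nests 11 and 4 (7.42 and 9.24 CPM). In the mouse of nest 5 it was 12.5 CPM, against a lowest of 6.52 CPM in CTR-LPS. Why these mice were low was not tested. Without mouse 3 of nest 5 the log2 fold change in CTR was 0.74 for Nfe2l2, 2.77 for Txnrd1 and 1.06 for Sod2.

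Gclc and Gclm encode the catalytic and modifier subunits of glutamate-cysteine ligase, the rate-limiting enzyme of glutathione synthesis. Gclc was at 6.56 to 14.0 CPM in ELS-PBS mice (median 9.08), and the 5 ELS-LPS mice had 1.81, 2.07, 3.39, 4.17 and 6.99 CPM, 4 of them below all ELS-PBS mice. It fell by 1.36 on the log2 scale in ELS (SE 0.38, adjusted p = 0.00963). In CTR the ranges were 5.25 to 18.6 CPM after PBS and 1.69 to 10.3 CPM after LPS, with a log2 difference of -0.66 that did not pass the test (SE 0.32, adjusted p = 0.173). Gclm differed by -0.51 on the log2 scale between CTR groups (adjusted p = 0.517) and by 0.09 between ELS groups (adjusted p = 0.947), at levels of 0.720 to 7.02 CPM over the P200 mice after LPS.

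The other thiol enzymes and the rest of the members did not pass the test after LPS. Prdx1, a peroxiredoxin that reduces hydrogen peroxide, had a median of 190 CPM in ELS-PBS mice, and the 5 ELS-LPS mice had 198, 242, 254, 265 and 341 CPM, 4 of them above all ELS-PBS mice. Its log2 difference was 0.49 in ELS (SE 0.18, adjusted p = 0.065) and 0.10 in CTR (adjusted p = 0.775). With DESeq2 the value in ELS was 0.51 (adjusted p = 0.0382), so this call depended on the method. Srxn1, which repairs over-oxidised peroxiredoxin, was at 0 to 6.10 CPM in the P200 mice and had differences of 0.49 in CTR (SE 0.63) and -0.79 in ELS (SE 0.72). Sod1 had differences of -0.06 (SE 0.16) and 0.18 (SE 0.18), and Keap1 of -0.21 (SE 0.28) and -0.39 (SE 0.32).

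Whether the LPS effect itself differed between CTR and ELS was tested as an interaction, which no member passed, nor did any of the genes tested (0%). The interaction was -0.75 on the log2 scale for Txnrd1 (SE 0.58, adjusted p = 0.952), 0.38 for Sod2 (SE 0.27, adjusted p = 0.939) and -0.70 for Gclc (SE 0.49, adjusted p = 0.937). At an unadjusted p under 0.05 the interaction was found for 980 genes (5.87%) and for 0 of the members, and 66 genes passed with edgeR's likelihood-ratio test and 11 with DESeq2, with 0 members by either.

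Neutrophil, monocyte and border macrophage markers were low after LPS. The summed CPM of 7 neutrophil markers was at most 9.17 in LPS mice, with Ly6g and Retnlg at 0 in all of them, and that of 5 monocyte markers at most 8.31, against 11.0 in PBS mice. Of 3 monocyte markers tested, Vcan was higher after LPS in ELS (adjusted p = 0.00498), at up to 2.14 CPM in ELS-LPS mice and up to 0.0564 CPM in ELS-PBS mice. The 5 border macrophage markers summed to at most 11.3 CPM in P200 mice. The 5 astrocyte markers summed to 301 to 503 CPM after PBS and to 422 to 618 CPM after LPS, nearly all of it Slc1a3, whose mean after LPS was 550 CPM for CTR and 515 CPM for ELS. Slc1a3 was higher after LPS in CTR (adjusted p = 0.00492), and Gja1 (adjusted p = 0.000957) and Gfap (adjusted p = 0.000787) were higher in ELS, at up to 3.86 and 4.06 CPM. The part of these markers in the results was not tested.

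**Figure D3:**
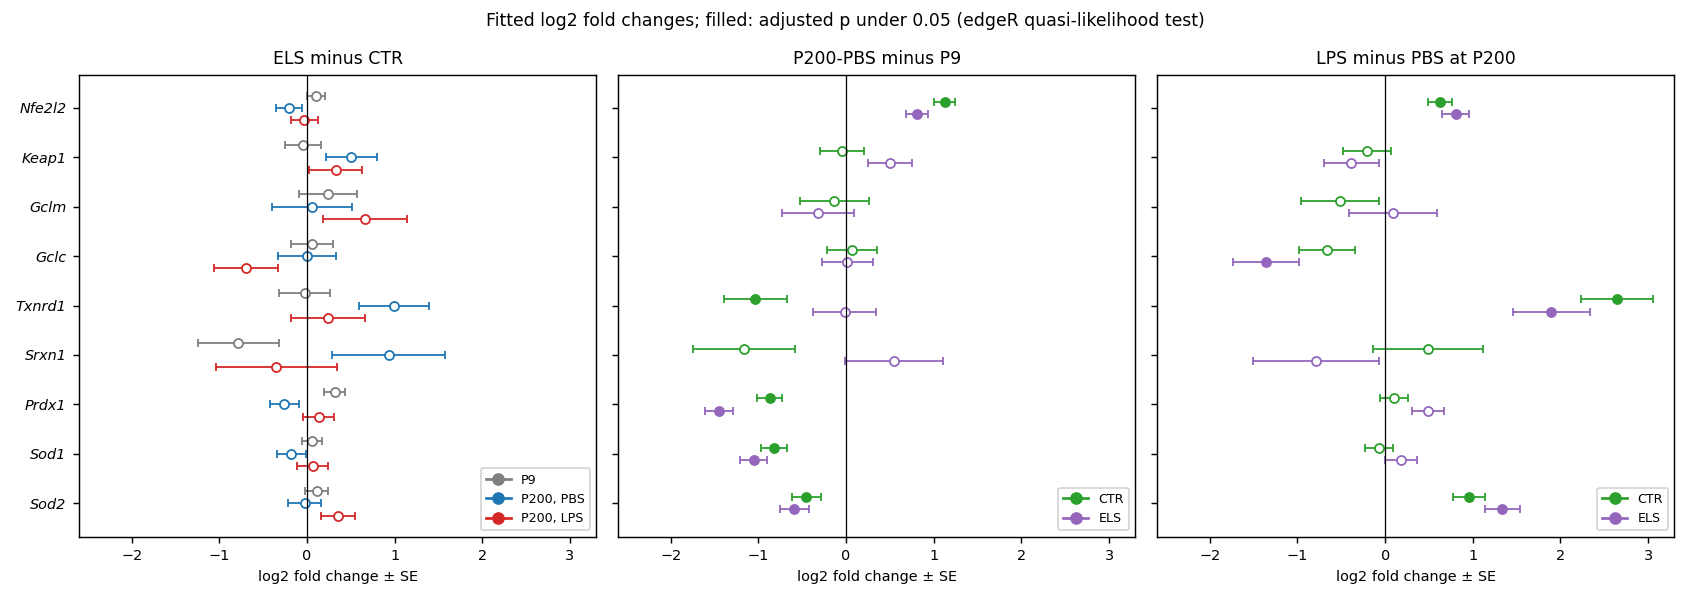
Log2 fold change with its SE for the 9 tested members in each comparison. The x axis is the log2 fold change, points are filled where the adjusted p was under 0.05, and panels show ELS minus CTR (P9, PBS and LPS), P200-PBS minus P9, and LPS minus PBS. Txnrd1 stands out to the right after LPS in both conditions, and no point is filled in the panel of ELS minus CTR.

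Other genes of the pathway were counted by list. The lists were chosen with earlier results of these data known, so their counts describe and do not test, and they stand beside 8.73% higher and 6.2% lower of all genes in CTR and 7.4% higher and 4.94% lower in ELS. Of 12 partners and regulators of NRF2, 5 were higher, 1 was lower and 6 did not pass in CTR, and 4 were higher and 2 lower in ELS. Bach1, the competitor of NRF2, rose 6.77-fold in CTR (log2 2.76, adjusted p = 8.57e-13) and 8.23-fold in ELS (log2 3.04, adjusted p = 1.82e-12), from 60.0 to 88.4 CPM in CTR-PBS mice to 262 to 872 CPM in CTR-LPS mice. Mafk, a small MAF partner, rose by 2.13 in CTR and 1.79 in ELS on the log2 scale. Maff, another small MAF, had the largest rise of the list, 4.51 in CTR and 4.15 in ELS, at low levels. It was at 0 to 0.428 CPM in CTR-PBS mice and 2.93 to 7.26 CPM in CTR-LPS mice. In ELS-PBS mice it was at 0 to 1.79 CPM and in ELS-LPS mice at 1.93 to 34.9 CPM. Bach2, a relative of Bach1, fell by 0.95 and 0.86, and Sqstm1, an autophagy receptor that binds KEAP1, rose by 0.46 and 0.52, the former not past the test without CTR-PBS mouse 1 of nest 1 (adjusted p = 0.102). Nfe2l1, a relative of Nfe2l2, rose by 1.33 in CTR, and Gsk3b fell by 0.65 in ELS. The CTR-LPS mice were widely spread for Nfe2l1, at 16.03 to 99.87 CPM (median 22.95). The CTR-PBS mice had 9.196 to 23.76 CPM (median 16.27), so the groups overlapped.

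Of 16 genes for glutathione enzymes and cystine import, 4 were higher, 0 lower and 12 did not pass in CTR, and 4 were higher and 1 lower in ELS. Slc7a11 and Slc3a2, the subunits of the cystine importer, rose by 2.02 and 0.41 on the log2 scale in CTR and by 3.71 and 0.61 in ELS. Chac1, another gene of this list, was at 0 to 0.318 CPM in CTR-PBS mice and 1.71 to 5.00 CPM in CTR-LPS mice. In ELS-PBS mice Chac1 was at 0 to 0.0804 CPM and in ELS-LPS mice at 1.40 to 6.04 CPM. Slc7a11 ran from 6.52 to 27.7 CPM in CTR-LPS mice, and from 7.42 to 79.2 CPM in ELS-LPS mice, the highest being mouse 1 of nest 20, which was also highest for Txnrd1. ELS-PBS mice had up to 3.91 CPM, with no overlap. CTR-PBS mouse 1 of nest 1, with few genes detected, had 18.0 CPM and the other 6 CTR-PBS mice up to 2.97 CPM, so that the overlap in CTR came from that mouse. Without it Slc7a11 rose by 3.15 in CTR (adjusted p = 3.35e-05), nearer to the 3.71 in ELS than the 2.02 with all mice. The difference of the LPS effect between conditions was 1.69 with all mice, that mouse included, and did not pass (adjusted p = 0.853). This difference is not given without that mouse. Of 13 thioredoxin and peroxiredoxin genes, 1 was higher and 2 lower in CTR, and 2 were higher and 2 lower in ELS. Without the 3 mice with few genes detected, 2 were higher and 3 lower in CTR and 5 higher and 2 lower in ELS. Sesn1 and Txnip, the latter an inhibitor of thioredoxin, fell by 1.38 and 0.66 in CTR and by 1.53 and 0.57 in ELS. Sesn2 rose by 2.07 in CTR, and Prdx6 and Txn2 rose by 0.91 and 0.49 in ELS.

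Of 16 other known target genes of NRF2, 1 was higher and 2 lower in CTR, and 3 were higher and 1 lower in ELS. Fth1, the heavy chain of the iron store ferritin, rose by 0.35 in CTR and 0.80 in ELS. Hmox1, the heme-degrading enzyme, rose by 0.68 in ELS (adjusted p = 0.0397). Idh1, a cytosolic NADPH-producing enzyme, fell by 0.65 in each condition, and Ugdh fell by 0.77 in CTR.

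**Figure D4:**
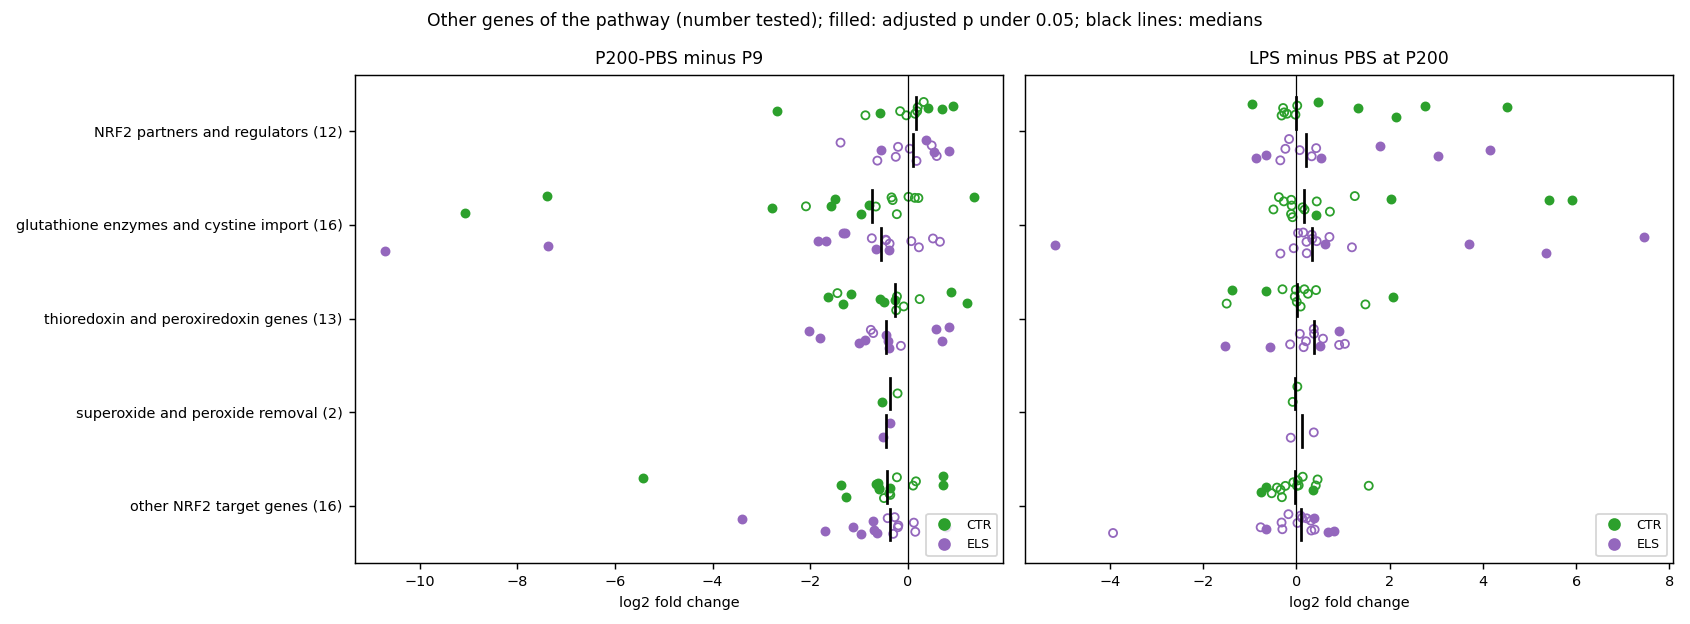
Log2 fold change of the other pathway genes by list, for P200-PBS minus P9 (left) and LPS minus PBS (right), with each circle 1 gene, green in CTR and purple in ELS. Filled circles had an adjusted p under 0.05, black lines are list medians, and the glutathione list holds most of the largest falls from P9 to P200.

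The comparison of ages asked how microglia of control and stressed mice differ between the end of the stress period and adulthood. Nfe2l2 was higher at P200 than at P9 in both conditions, while Prdx1, Sod1 and Sod2 were lower in both and Txnrd1 was lower in CTR. That is 5 of 9 tested members past the test in CTR, where 44.1% of all genes passed in either direction, and 4 of 9 in ELS, where 42.2% did. Members that were at least 2-fold changed numbered 2 in each condition (Nfe2l2 and Txnrd1 in CTR, Prdx1 and Sod1 in ELS), with 26.4% and 26.2% of all genes meeting that rule. A share this near the background is not a result about the members.

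Nfe2l2 was at 113 to 160 CPM (median 141) in P9-CTR mice and at 262 to 322 CPM in CTR-PBS mice, and at 88.7 to 224 CPM (median 146) in P9-ELS and 234 to 294 CPM in ELS-PBS mice. The groups did not overlap in either condition. The fold was 2.18 in CTR (log2 1.12, SE 0.12, adjusted p = 8.42e-11) and 1.76 in ELS (log2 0.81, SE 0.13, adjusted p = 5.72e-07).

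Prdx1 went the other way, from 305 to 537 CPM at P9 to 197 to 262 CPM at P200 in CTR, and from 398 to 1131 CPM to 148 to 205 CPM in ELS. No P200-PBS mouse reached the lowest P9 mouse of its condition. It fell by 0.87 in CTR (SE 0.15, adjusted p = 2.57e-06) and by 1.45 in ELS (SE 0.16, adjusted p = 1.02e-10) on the log2 scale. The highest P9-ELS value of 1131 CPM was in mouse 2 of nest 19, a library with few genes detected. Without the 3 such libraries Prdx1 fell by 1.302 in ELS (adjusted p = 9.1e-14).

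Sod1 fell by 0.82 in CTR (SE 0.15, adjusted p = 7.83e-06) and by 1.06 in ELS (SE 0.15, adjusted p = 1.83e-07). Its range in P9-ELS mice was 37.0 to 49.4 CPM and in ELS-PBS mice 17.0 to 26.3 CPM, with no overlap, whereas in CTR the ranges were 26.3 to 66.3 CPM and 17.4 to 27.9 CPM. Sod2 fell less, by 0.45 in CTR (SE 0.16, adjusted p = 0.0195) and 0.59 in ELS (SE 0.17, adjusted p = 0.00388). In CTR it was 48.4 to 66.5 CPM at P9 and 35.6 to 45.4 CPM at P200, with no overlap.

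Txnrd1 was lower at P200 in CTR, from a median of 24.3 CPM (14.5 to 28.9) to 10.6 CPM, and fell by 1.04 on the log2 scale (SE 0.36, adjusted p = 0.0159). The call was lost when only the compared groups were fitted (adjusted p = 0.062), and with limma voom the level was 4.21-fold lower (adjusted p = 0.00718). Without CTR-PBS mouse 1 of nest 1 the value was -0.81 (adjusted p = 0.00932), under 2-fold. In ELS the difference was -0.02 (SE 0.36, adjusted p = 0.976), with medians of 22.4 and 24.5 CPM. The test of this difference between the conditions gave 1.02 (SE 0.49, adjusted p = 0.479), so the age effects of Txnrd1 could not be told apart. Prdx1 had an interaction of -0.58 (SE 0.20, adjusted p = 0.319) and Srxn1 of 1.71 (SE 0.80, adjusted p = 0.453), and 0.0299% of all genes passed that test. An unadjusted p under 0.05 was found for 1712 genes (10.3%) and 3 members, Prdx1, Srxn1 and Txnrd1. The likelihood-ratio test called 29 genes and DESeq2 20, with 0 members by either. Without the libraries with few genes detected the interactions were -0.39 for Prdx1, 1.265 for Srxn1 and 0.84 for Txnrd1.

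Keap1, Gclm and Gclc did not pass the test between ages. Keap1 had log2 differences of -0.05 in CTR (SE 0.25) and 0.51 in ELS (SE 0.25, adjusted p = 0.102), and without the mice with few genes detected the latter was 0.50 (adjusted p = 0.00808). Gclm had -0.13 and -0.32, and Gclc 0.07 and 0.01, in CTR and ELS. Srxn1 had -1.17 in CTR (SE 0.58, adjusted p = 0.0977) and 0.55 in ELS (SE 0.56, adjusted p = 0.459). Srxn1 had no read in any of the 3 libraries with few genes detected, and without them its difference was -0.95 in CTR (adjusted p = 0.0557), and for ELS it was 0.32 (adjusted p = 0.539).

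Of all genes, 44.1% passed between ages in CTR and 42.2% in ELS. Of those that passed, 60.4% were lower at P200 in CTR and 59.4% in ELS, and the pathway lists are given beside these shares. Of 16 glutathione genes, 1 was higher and 7 lower in CTR and 0 were higher and 8 lower in ELS. The gene that was higher in CTR was Slc7a11, which did not pass without CTR-PBS mouse 1 of nest 1 (0.23 against 1.36, adjusted p = 0.729). Gpx1, a major glutathione peroxidase, fell by 1.49 in CTR and 1.84 in ELS. The secreted peroxidase Gpx3 was at 158 to 233 CPM in P9-CTR mice and at 0 to 0.824 CPM in CTR-PBS mice. Of 13 thioredoxin and peroxiredoxin genes, 2 were higher and 6 lower in CTR and 3 higher and 7 lower in ELS, with Prdx4 falling by 1.63 and 2.03 and Txn1 by 1.16 and 1.81, while Txnip rose by 1.23 and 0.84. Of 16 other targets, 2 were higher and 8 lower in CTR and 2 higher and 7 lower in ELS. Ftl1, the ferritin light chain, fell by 1.37 and 1.69 and Tkt, a pentose phosphate enzyme, by 1.26 and 1.12. Of 12 partners, 3 were higher and 2 lower in CTR and 3 higher and 1 lower in ELS, with Bach2 rising by 0.93 and 0.84. Counts moved without the 3 libraries with few genes detected. Glutathione genes were then 0 higher and 9 lower in CTR and 0 higher and 7 lower in ELS. Thioredoxin and peroxiredoxin genes were 3 higher and 8 lower in each condition. Other targets were 2 higher and 10 lower in CTR and 2 higher and 9 lower in ELS. Partners were 3 higher and 3 lower in CTR and 3 higher and 2 lower in ELS. Of the remaining 3 genes for removal of superoxide and peroxide, Sod3 was under the filter and Cat, the gene of catalase, fell by 0.52 in CTR and 0.37 in ELS. Ccs, the copper chaperone of SOD1, differed by -0.21 in CTR (adjusted p = 0.391) and fell by 0.51 in ELS (adjusted p = 0.0324), where it did not pass without the libraries with few genes detected (-0.27, adjusted p = 0.141).

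Several marker sums moved with age. The 5 border macrophage markers summed to 470 to 918 CPM at P9 and to at most 10.6 CPM after PBS at P200, most of it Mrc1 at P9. The 5 cycling genes summed to 498 to 1870 CPM at P9 and to at most 16.9 CPM in P200-PBS mice, and 4 neuronal markers to 19.5 to 91.7 CPM and at most 11.7 CPM. Of the 5 astrocyte markers, Gfap, Gja1, Aqp4 and Aldoc were lower and Slc1a3 higher at P200 in both conditions, Gfap falling from a mean of 41.0 to 1.28 CPM in CTR and from 32.5 to 0.108 CPM in ELS. Their part in these results was not tested.

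The direct comparison of ELS with CTR asked whether early-life stress changed these genes at P9 or in adulthood. No member passed the test in any of the 3 comparisons. At P9 0% of all genes passed, after PBS 0.168% and after LPS 0%. At an unadjusted p under 0.05, 914 genes, 1622 genes and 798 genes were found at P9, after PBS and after LPS, including 1, 1 and 0 members, and 0 members passed with the likelihood-ratio test or DESeq2. Over all genes the likelihood-ratio test called 1, 215 and 10 genes and DESeq2 called 0, 177 and 2.

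After PBS the largest differences, neither past the test, were in Txnrd1 and Srxn1. Txnrd1 was at 0 to 22.7 CPM in CTR-PBS and 10.9 to 34.0 CPM in ELS-PBS mice, with 4 of 6 ELS mice above all CTR mice. The log2 difference was 0.99 (SE 0.40, adjusted p = 0.342), and 0.77 without mouse 1 of nest 1 (SE 0.29, adjusted p = 0.39). Srxn1 had 0.93 (SE 0.65, adjusted p = 0.722) and Keap1 0.51 (SE 0.29, adjusted p = 0.609), again with mouse 1 of nest 1 lowest of the CTR mice for both. Without that mouse they were 0.71 and 0.32. Nfe2l2 was -0.21 (SE 0.15, adjusted p = 0.724), Prdx1 -0.26 (SE 0.17, adjusted p = 0.682) and the remaining members were between -0.18 and 0.06.

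At P9 the largest difference was -0.78 for Srxn1 (SE 0.47, adjusted p = 0.935), followed by 0.32 for Prdx1 (SE 0.12, adjusted p = 0.875). Without the libraries with few genes detected they were -0.55 and 0.17. After LPS it was -0.70 for Gclc (SE 0.36) and 0.66 for Gclm (SE 0.48), each with an adjusted p of 1. The sizes of the SEs set what could have been seen, since Nfe2l2 had an SE of 0.10 to 0.15 in these comparisons and Srxn1 of 0.47 to 0.69.

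Nqo1, the quinone reductase often used as a readout of NRF2 activity, was barely detected. Over all mice 137 counts were found. Counts above 0 were present in 7 of 12 P9-CTR mice, 6 of 13 P9-ELS mice, 0 of 7 CTR-PBS mice, 2 of 6 ELS-PBS mice, 1 of 7 CTR-LPS mice and 1 of 5 ELS-LPS mice. The highest count was 27, in a CTR-LPS mouse. Counts this low gave no basis for a fold change, and absence of a count in a mouse was not absence of the gene's expression at this depth.

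The genes whose level followed a member most closely over the 50 mice were found among 11053 genes with a mean log2 CPM of at least 1, by Pearson's r of log2 CPM, given without a test because mice of the same group share age and treatment. For Nfe2l2 they were Fcgr2b (r = 0.968), Sting1 (r = 0.96) and Srgn (r = 0.951). For Sod2 they were Sdc4 (r = 0.891), Cd74 (r = 0.841) and Vcam1 (r = 0.832), and within the 25 P200 mice Cxcl16 (r = 0.948), Cd14 (r = 0.946) and Sdc4 (r = 0.944). For Keap1 the gene closest was Gm16754 (r = 0.942), a non-coding RNA on the opposite strand whose exons overlap those of Keap1.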

How the data were processed

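Microglial RNA from 50 mice was sequenced, 1 library per mouse. The authors trimmed reads with cutadapt 2.10, aligned them to GRCm39 with STAR 2.5.4 and counted unique exonic reads with HTSeq 0.11.0. The deposited values are raw counts per gene, not normalized. The annotation release and the strand setting are not given in the sources used here. No values were left without a sample.

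Counts were fitted with edgeR 4.0.16 (R 4.3.3, quasi-likelihood test, TMM, 1 mean for each of 6 groups, keeping 16696 of 53700 genes, those that reached 1 CPM in over 2 mice). P-values were adjusted by Benjamini-Hochberg over all genes tested. SE is the log2 fold change divided by the square root of F. Log2 CPM used a prior count of 2. Depth was 5152838 to 42231258 counts per mouse. P-values treat mice of the same nest as independent, except those of limma voom and of the fit with nest as block. The scripts were tested on simulated data. Promoters came from GRCm39 and GENCODE vM39.

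Alternatives were the likelihood-ratio test, robust fit, DESeq2 1.42.0 and its size factors, filters, groups compared alone, and leaving out mice. Further alternatives were limma 3.58.1 voom with nest as a random effect, and nest as a fixed block for LPS. The members and gene lists were chosen with earlier results of these data known. For each list, up to 4 genes with the largest change among those that passed, with mean log2 CPM of at least 1, were to be named. A further microglia marker is not reported here.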

Additional observations from a re-analysis of the deposited data

Results flagged for a closer look

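For each of the 10 genes and each P200 group of 5 to 7 mice, and for groups of 4 to 10 mice only, the most extreme mouse was compared with its group by Dixon's test at 95%. Over 39 such sets, a mouse stood apart in 6, from 5 different mice, and about 1 in 20 sets would be expected to do so by chance. CTR-PBS mouse 1 of nest 1, which had few genes detected, was low for Nfe2l2 (262.5 CPM, others 300.0 to 322.0) and for Keap1 (5.292 CPM, others 31.87 to 37.56). Nqo1 was above the other mice in ELS-PBS mouse 1 of nest 4 (0.2847 CPM), in CTR-LPS mouse 2 of nest 15 (1.215 CPM, others 0) and in ELS-LPS mouse 3 of nest 17 (0.604 CPM, others 0). In these last 2 sets every other mouse was at 0, so that any read would have stood apart, and they do not bear on that rate. Gclm was high in CTR-LPS mouse 3 of nest 1 (5.656 CPM, others 0.7199 to 2.194).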

How the results depend on the processing

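Every member that passed the test also did so in each of 25 fits that left out a single P200 mouse. Among 10 other alternatives, 151 values of passed results were computed and 150 stayed past the threshold in the same direction. Txnrd1 between ages in CTR was lost when only the compared groups were fitted (-1.03, adjusted p = 0.062). Prdx1 after LPS in ELS was gained with DESeq2 size factors (adjusted p = 0.0474), a filter of 0 counts in at most 2 mice (0.0454), DESeq2 (0.0382), only the groups compared (0.0354) and without the mice with few genes (0.00337). It was also gained without ELS-LPS mouse 2 of nest 2 (0.0408). Among members that passed, folds moved by over 1.5 times only for Txnrd1 with limma voom, 13.0-fold after LPS in CTR and 4.21-fold lower between ages in CTR. Counts of the pathway lists without the mice with few genes, and Slc7a11 also without CTR-PBS mouse 1 of nest 1 alone, were added after seeing the data. Keap1 between ages in ELS was gained with limma voom (0.71, adjusted p = 0.029). With no filter, Nqo1 also passed between ages in CTR, for 6 members, against CTR-PBS mice that all had 0 reads, so that no fold was read from it. Requiring at least a 2-fold change left 2 members for age in CTR, 2 for age in ELS and 1 for LPS in CTR, against 5, 4 and 3.

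Nest number as a replicate block could be fitted for LPS only, where 10 nests held mice of both treatments. Correlations of deviations from the group mean between PBS and LPS mice of the same nest were -0.0411 to 0.0841, none over 0.1. Such mice thus shared little of their deviation. This check did not cover P9 and cannot show that mice of the same nest are independent. With the replicate block, 3 members passed in CTR and 4 in ELS, and the calls over all genes moved from 2493 and 2059 to 2053 and 2000.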
